A study of Bos grunniens with 18 samples.

Results

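The collagen genes of the yak epididymis were taken as every entry of the deposited expression table whose whole gene symbol reads COL, digits, A, digits. This gave 42 entries among 18467 genes, with 41 distinct symbols, since COL4A2 stands on 2 entries. One of them (ENSBGRG00000005083) has its m6A sites on chromosome 15. The other (ENSBGRG00000021026) has its site on chromosome X and is described in the same table as the alpha 6 chain of type IV collagen, and it is called the X-linked COL4A2 entry here. Symbols are given in capitals, although 8 entries are in mixed case. No entry carries the symbols COL4A6, COL7A1 or COL18A1, so COL7A1 and COL18A1 were not analysed here, and COL4A6 only as far as the X-linked COL4A2 entry is that gene, as its description says.

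The tissue came from 6 healthy adult male yaks (Bos grunniens), 4 years old, and all regions shared that source, with no treatment or mutation. The cauda, the corpus and the caput are the tail, body and head of the epididymis, the duct in which sperm mature and are stored. Each region had 3 libraries enriched with an antibody against N6-methyladenosine (m6A, a methylated adenosine of messenger RNA) and 3 unenriched input libraries, 18 in all. No label ties a library to an animal, so the spread between libraries may be partly technical. Whole pieces of tissue were used, so duct epithelium, muscle, stroma and luminal sperm were measured together.

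A collagen is a trimer of alpha chains wound into a triple helix, and each gene codes for 1 kind of chain. Fibrillar collagens form the tensile fibres of stroma, type IV chains form the sheet-like network of basement membranes, type VI chains form beaded filaments, and fibril-associated collagens decorate the surface of fibres. Others span the cell membrane. In the epididymis these proteins surround the duct beneath its epithelium and lie between the smooth muscle cells that move sperm along.

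Expression was given as FPKM (fragments per kilobase of transcript, scaled to the number of mapped fragments) in 9 input columns. The column headers carry the codes EA, EB and EC, 3 columns each, which match no label. No column was therefore tied to a region, and the columns were described one by one without a test. Their relative depth, read from the steps between low values, lay between 0.961 and 1.21 times that of the first column, while the absolute depth is unknown. Markers of the wall were present: all 8 fibroblast markers, all 8 smooth muscle markers and all 7 endothelial markers had a median of at least 1 FPKM. The summed FPKM of the sperm and spermatid markers differed most between columns, lying between 657 and 963 in EA, between 3.06 and 84.7 in EB and between 336 and 2013 in EC.

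Collagen transcripts were dominated by types I, III and VI. Among the 42 entries, 25 (59.5%) had a median of at least 1 FPKM over the 9 columns, against 66.6% of all genes, and 12 (28.6%) reached 10 FPKM, against 34.1% of all genes. By class, 8 of 11 fibrillar chains, 6 of 6 type IV chains, 3 of 5 type VI chains, 3 of 10 fibril-associated chains and 3 of 4 transmembrane chains had a median of at least 1 FPKM. COL15A1, a multiplexin of basement membrane zones, and COL8A1, a short-chain network collagen, completed the 25. The other 17 entries included the cartilage collagens COL9A1, COL9A2, COL9A3, COL10A1, COL11A1 and COL11A2. Among those 17, 6 entries (COL11A1, COL9A1, COL10A1, COL9A2, COL25A1 and COL19A1) were listed at 0 in at least 1 column.

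**Figure D1:**
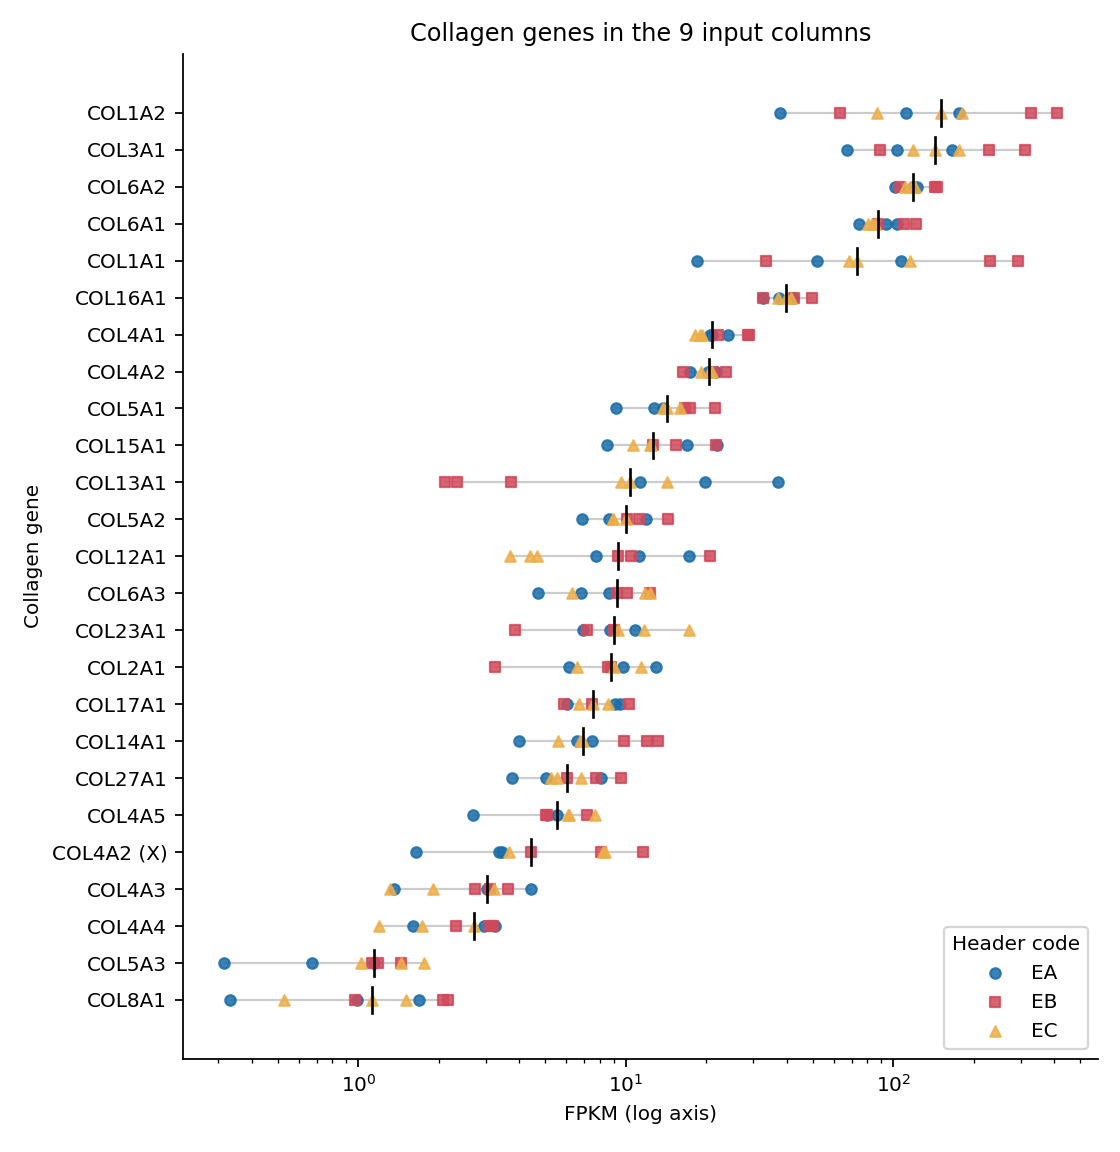
FPKM of the 25 collagen genes with a median of at least 1 FPKM, on a log axis, with 1 point for each of the 9 input columns, coloured by header code, a grey line over their range and a black tick at the median. COL1A2, COL3A1 and COL1A1 had high medians and wide ranges, COL6A1 and COL6A2 had high medians and narrow ranges, and COL13A1 was lowest in the 3 EB columns.

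COL1A2, a chain of type I collagen, the main tensile collagen of connective tissue, had the highest median at 151 FPKM, with a lowest value of 37.7 FPKM and a highest of 408 FPKM. COL1A1, its partner chain, lay between 18.5 and 293 FPKM with a median of 73.3 FPKM. COL3A1, the chain of type III collagen of pliable stroma and vessel walls, lay between 67.2 and 311 FPKM with a median of 143 FPKM. All 3 were highest in EB1_4, next highest in EB2_1 and lowest in EA2_1, so the EB code held both the highest columns and a low one. In EB1_3, the low EB column, COL1A2 had 63.3 FPKM, COL3A1 89.0 FPKM and COL1A1 33.4 FPKM.

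These 3 chains made most of the difference in total collagen between columns. Their summed level was 123 FPKM in EA2_1 and 1011 FPKM in EB1_4, whereas the sum of the other 39 entries lay between 337 and 530 FPKM. The 3 chains thus made up between 26.8% and 65.6% of the collagen FPKM of a column. In a bulk sample, fewer cells of a type and less RNA per cell cannot be told apart. DCN, a fibroblast marker that codes for decorin, a proteoglycan that binds collagen fibres, had 242, 429 and 317 FPKM in the EA columns (EA2_1, EA3_1, EA4_1), 412, 436 and 406 FPKM in the EB columns (EB1_3, EB1_4, EB2_1) and 345, 216 and 255 FPKM in the EC columns (EC2_2, EC3_2, EC4_1). SPARC, a collagen-binding matrix protein, had 60.5, 144 and 133 FPKM in EA, 69.5, 248 and 150.02 FPKM in EB and 75.8, 171 and 98.0 FPKM in EC, in the same order of columns. BGN, the gene of biglycan, another small proteoglycan, had 206, 78.6 and 46.4 FPKM in EA, 57.7, 81.0 and 72.1 FPKM in EB and 35.5, 36.6 and 47.6 FPKM in EC. EA2_1, the lowest column of the 3 collagens, was thus also lowest for SPARC but highest for BGN. The summed FPKM of the 8 fibroblast markers lay between 887 and 931 in EA, between 1475 and 2374 in EB and between 2293 and 4794 in EC. Its order of codes was that of GSN, which lay between 398 and 629 FPKM in EA, 933 and 1789 in EB and 1861 and 4509 in EC. DCN, MFAP5 and PI16 were instead higher in each EB column than in any EC column. LUM, PDGFRA, PDGFRB and DPT overlapped between EB and EC. The part of fibroblast content in the collagen levels was not tested.

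**Figure D2:**
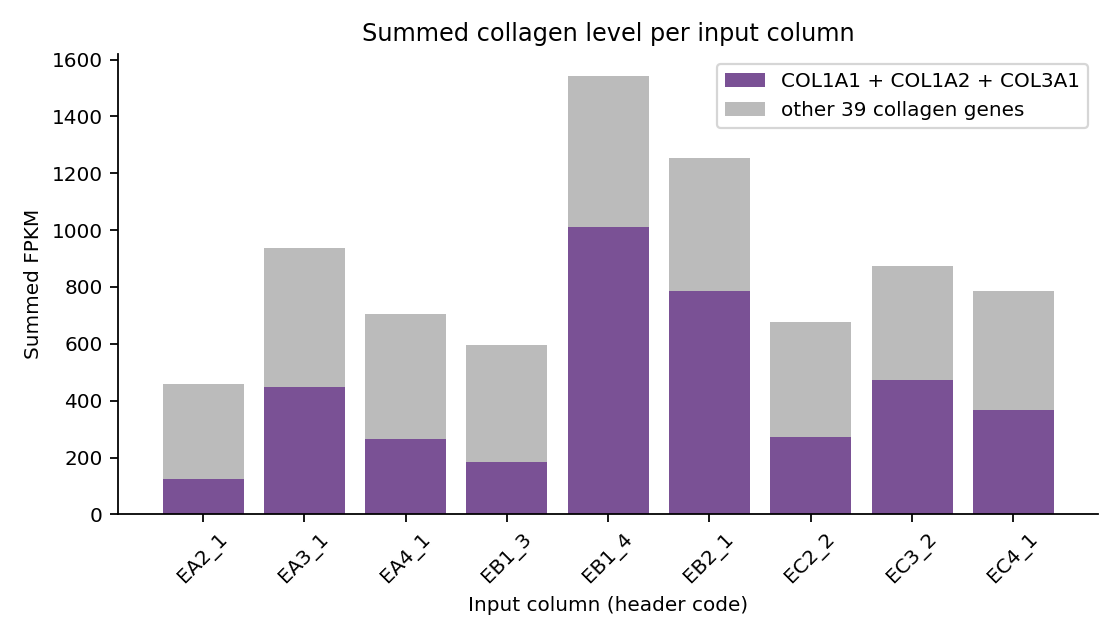
Summed FPKM of the collagen genes in each of the 9 input columns, with the bars split into COL1A1, COL1A2 and COL3A1 together and the other 39 entries. The summed level of the 3 chains lay between 123 and 1011 FPKM, and that of the other 39 entries lay between 337 and 530 FPKM.

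The type VI chains COL6A1 and COL6A2 were abundant and varied little between columns, while the other type VI chains were lower and varied more. COL6A2 lay between 101 and 146 FPKM with a median of 119 FPKM, and COL6A1 lay between 74.2 and 122 FPKM with a median of 87.8 FPKM. The ratio of highest to lowest column was 1.45 for COL6A2 and 1.64 for COL6A1, against a median of 2.84 over the 25 collagen genes and 2.43 over all genes at that level with no column at 0. COL6A3, the largest chain of the classical type VI trimer, was much lower per length, at 4.69 to 12.3 FPKM, with a ratio of 2.63. Of the alternative chains, COL6A6 lay between 0.238 and 1.17 FPKM with a median of 0.940 FPKM. COL6A5 lay between 0.0385 and 0.435 FPKM with a median of 0.140 FPKM.

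Chains that assemble together kept 1 order in the pairs of types I, V and VI and none in the type IV pairs. Per length, COL1A1 was below COL1A2 in 9 of 9 columns, with a median ratio of 0.605 between 0.464 and 0.782. COL6A1 was below COL6A2 in 9 of 9 columns (median ratio 0.775), and COL6A3 was below COL6A1 in 9 of 9 (median ratio 0.0843). COL5A2 was below COL5A1 in 9 of 9 (median ratio 0.651). COL4A1 and COL4A2, the ubiquitous chains of type IV collagen, were close, with a median ratio of 1.11 between 0.886 and 1.36. COL4A3 and COL4A4, chains of the specialised type IV network, had a median ratio of 1.09 between 0.856 and 1.57. The first chain of each of these type IV pairs was the lower in 3 of 9 columns. The X-linked COL4A2 entry was below COL4A5 in 5 of 9 columns, with a median ratio of 0.869 between 0.599 and 1.62. FPKM ratios depend on the transcript lengths the authors used, so they do not give a molar stoichiometry.

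COL4A1, COL4A2 and COL16A1, the next in level, varied less between columns than type I collagen. COL4A1 lay between 18.2 and 28.8 FPKM with a median of 20.9 FPKM, and COL4A2 between 16.4 and 23.7 FPKM with a median of 20.5 FPKM. COL16A1, a fibril-associated collagen, lay between 32.6 and 49.8 FPKM with a median of 39.8 FPKM. Other chains of these classes varied more, with highest-to-lowest ratios of 7.04 for the X-linked COL4A2 entry and 5.62 for COL12A1. COL21A1, a fibril-associated chain of low level, lay between 0.0707 and 1.37 FPKM. COL5A1, a chain of the type V collagen that helps to start fibres, had 9.19, 13.7 and 12.7 FPKM in the EA columns, 16.7, 21.6 and 17.4 FPKM in EB and 15.9, 13.8 and 14.3 FPKM in EC. Its EB columns lay above all others and its EA columns below all others.

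COL13A1, a transmembrane collagen of cell adhesion sites that is known from neuromuscular junctions in mice, differed most between columns among the 25 genes. It had 11.3, 37.1 and 19.8 FPKM in the EA columns, 2.35, 3.71 and 2.10 FPKM in the EB columns and 10.4, 14.3 and 9.57 FPKM in the EC columns. The 3 EB columns lay below the other 6 with no overlap, and the ratio of highest to lowest column was 17.6. The summed FPKM of the 4 glial markers, to which S100B gave the most, lay between 109 and 254 in EA, between 46.9 and 55.6 in EB and between 102 and 132 in EC, and that of the sperm markers was also lowest in EB. Their part in the COL13A1 levels was not tested.

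COL12A1, a fibril-associated collagen of tissues under mechanical load, had 7.71, 11.2 and 17.2 FPKM in the EA columns, 20.7, 10.5 and 9.38 FPKM in EB and 4.38, 3.68 and 4.66 FPKM in EC. The EC columns lay below the other 6. COL9A1, a cartilage collagen, was at 0 to 0.0515 FPKM in the EA and EB columns and at 1.67, 0.415 and 0.615 FPKM in EC. COL26A1 reached 1.92 and 4.71 FPKM in 2 EA columns and 0.670 FPKM in EA4_1, and lay between 0.0606 and 0.593 FPKM in the other 6. COL2A1, the fibrillar chain best known from cartilage, had a median of 8.79 FPKM and lay between 3.25 and 13.0 FPKM.

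Collagen genes that separated the header codes were counted beside the share of all genes that did. Of the 25 genes with a median of at least 1 FPKM, COL5A1 and COL14A1 had all EB columns above the other 6 (4.56% of all genes at that level did). COL5A1 and the X-linked COL4A2 entry had all EA columns below the others (6.95% of all genes). COL13A1 had all EB columns below (7.93%), COL4A1 and COL12A1 had all EC columns below (4.12%), and no collagen gene had all EA columns above (5.45%) or all EC columns above (8.23%). Single columns moved these counts. Without EB1_3, 8 genes had the remaining EB columns above the rest, namely COL1A1, COL1A2, COL3A1, COL5A1, COL6A1, COL6A2, COL14A1 and COL16A1, against 6.79% of all genes for the same columns. The count was 4 without EA3_1 (4.85% of all genes) and 4 without EB2_1 (7.06%). Without EA3_1, 5 genes had the remaining EA columns below the rest (8.43% of all genes). Without EA2_1, 4 genes had the EC columns below (5.14%). A single gene had the EA columns above without EA2_1 (8.14%) or without EC3_2 (5.89%). A single gene had the EC columns above without EA3_1 (8.92%), without EB1_4 (9.37%) or without EC2_2 (12.97%). EA2_1 was the lowest column for 15 of the 25 genes (13.1% of all genes at that level) and EB1_4 the highest for 12 of 25 (5.7% of all genes).

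Nearly every collagen gene with a median of at least 1 FPKM had a site listed by the authors. Their comparisons of pairs of regions list sites, each an entire peak of antibody enrichment with a fold and a p-value. A listed site need not hold an adenosine that the authors classed as m6A. In COL1A1, COL1A2 and COL3A1 no adenosine was so classed. A site was listed for 25 collagen genes in at least 1 comparison and for 17 of them in all 3. Of the 25 genes with a median of at least 1 FPKM, 24 (96.0%) had a site, against 70.8% of all genes at that level. The exception was COL27A1, a fibrillar collagen with a median of 6.01 FPKM. COL6A6, with a median of 0.940 FPKM, had a site below that level, and the other 16 entries below it had none. This difference in share was not tested.

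Collagen genes had up to 6 sites in a comparison. COL1A1, COL1A2 and COL3A1 had 1 site each at most in a comparison, and COL6A1, COL6A2 and COL16A1 had 2. COL12A1 and COL5A1, with medians of 9.38 and 14.3 FPKM, had up to 6 sites, and COL6A3 had up to 5. Over all genes with a site the median was 2, and it was 1 over those with a median of at least 50 FPKM and over those with at least 100 FPKM. It was 2 over the collagen genes with a site. Counted over the comparisons by exact start and end, the collagen sites numbered 102. A peak listed with shifted ends in another comparison was counted again, so this is not a number of separate peaks. Of the 102, 77 (75.5%) spanned a gap, so that their first and last base lay farther apart than their length. The share was 57.5% of all 31651 sites counted in the same way. The median length of the collagen sites so counted was 251 bases, as for all sites. The median span was 2463 bases for collagen sites and 979 bases for all sites.

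**Figure D3:**
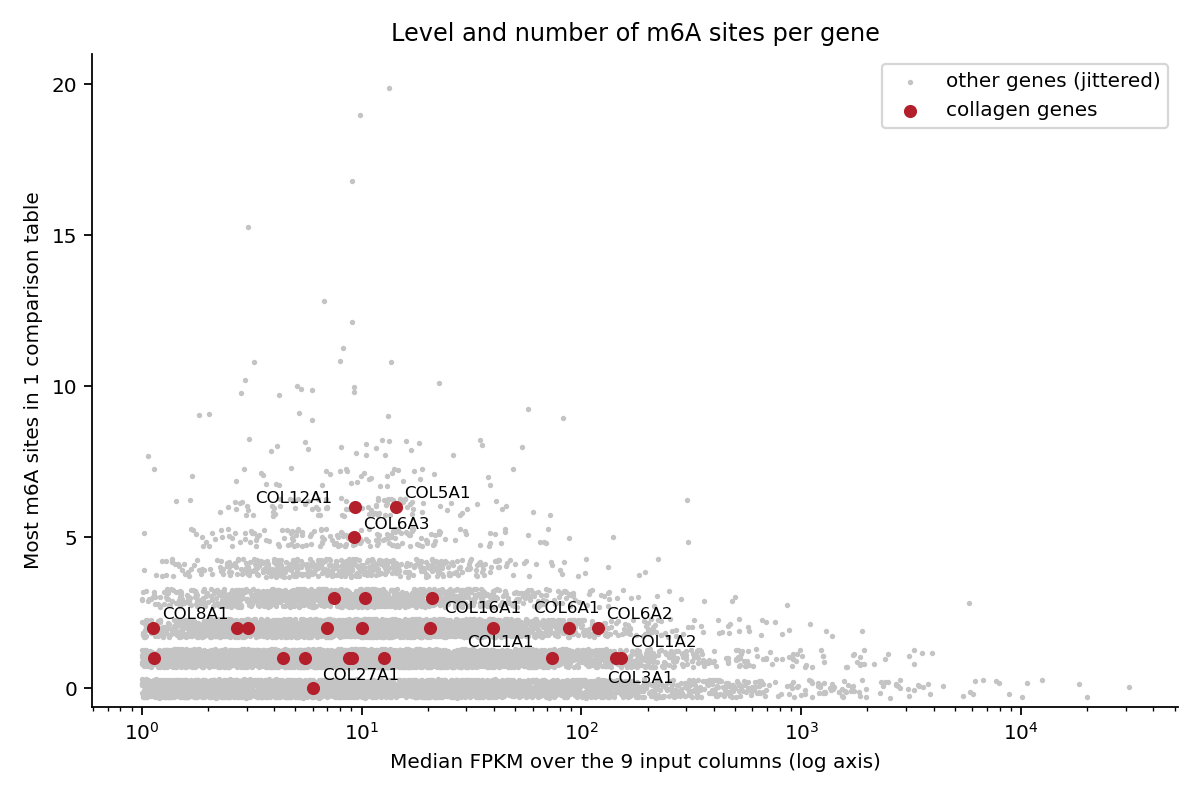
Most m6A sites of a gene in any 1 comparison table against its median FPKM over the 9 input columns (log axis), for genes with a median of at least 1 FPKM. Red points are the 25 collagen genes and grey points, spread a little in height, are all other genes. COL12A1, COL5A1 and COL6A3 had 5 or 6 sites, COL1A1, COL1A2 and COL3A1 had 1, and COL27A1 had none.

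The regional comparisons asked which m6A sites differed along the duct. Folds are given as log2 of the first-named over the second-named region. The sources used here do not state whether the authors' folds are relative to the input. A difference in the mark cannot be told apart from one in the transcript. The tables hold 1 value per site and comparison and none per library, and replicate errors are therefore missing. The 3 comparisons share their libraries, so their values are set side by side only. Coordinates count from 1, and the sources used here do not name their genome build.

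No collagen site passed an adjusted p below 0.05 in any comparison. For corpus over caput, the authors' deposited table held 47 sites of 23 collagen genes with a median log2 fold of 0.0875, against -0.02 over all 14061 sites. The authors' deposited table gave 0.129 as the lowest adjusted p among them, and of all sites 1.12% were called higher and 1.86% lower. For cauda over caput, the authors' deposited table held 39 sites of 20 collagen genes with a median log2 fold of 0.0541, against 0.0426 over all 13826 sites. The lowest of their adjusted p-values was 0.112 in the authors' deposited table, and of all sites 1.41% were called higher and 0.861% lower. For cauda over corpus, the authors' deposited table held 43 sites of 20 collagen genes with a median log2 fold of -0.0298, against 0.0461 over all 13917 sites. The lowest of their adjusted p-values was 0.109 in the authors' deposited table, and of all sites 1.24% were called higher and 0.719% lower.

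At an unadjusted p below 0.05, which does not allow for the number of sites, the counts were near or below those of all sites. For corpus over caput, 3 collagen sites were higher and 2 lower (10.6% in all) in the authors' deposited table, against 7.21% higher and 9.24% lower of all sites. For cauda over caput, the authors' deposited table gave 4 sites higher and 1 lower (12.8% in all), against 10.5% higher and 6.68% lower of all sites. For cauda over corpus, the authors' deposited table gave 3 sites higher and 3 lower (13.95% in all), against 9.71% higher and 6.68% lower of all sites.

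**Figure D4:**
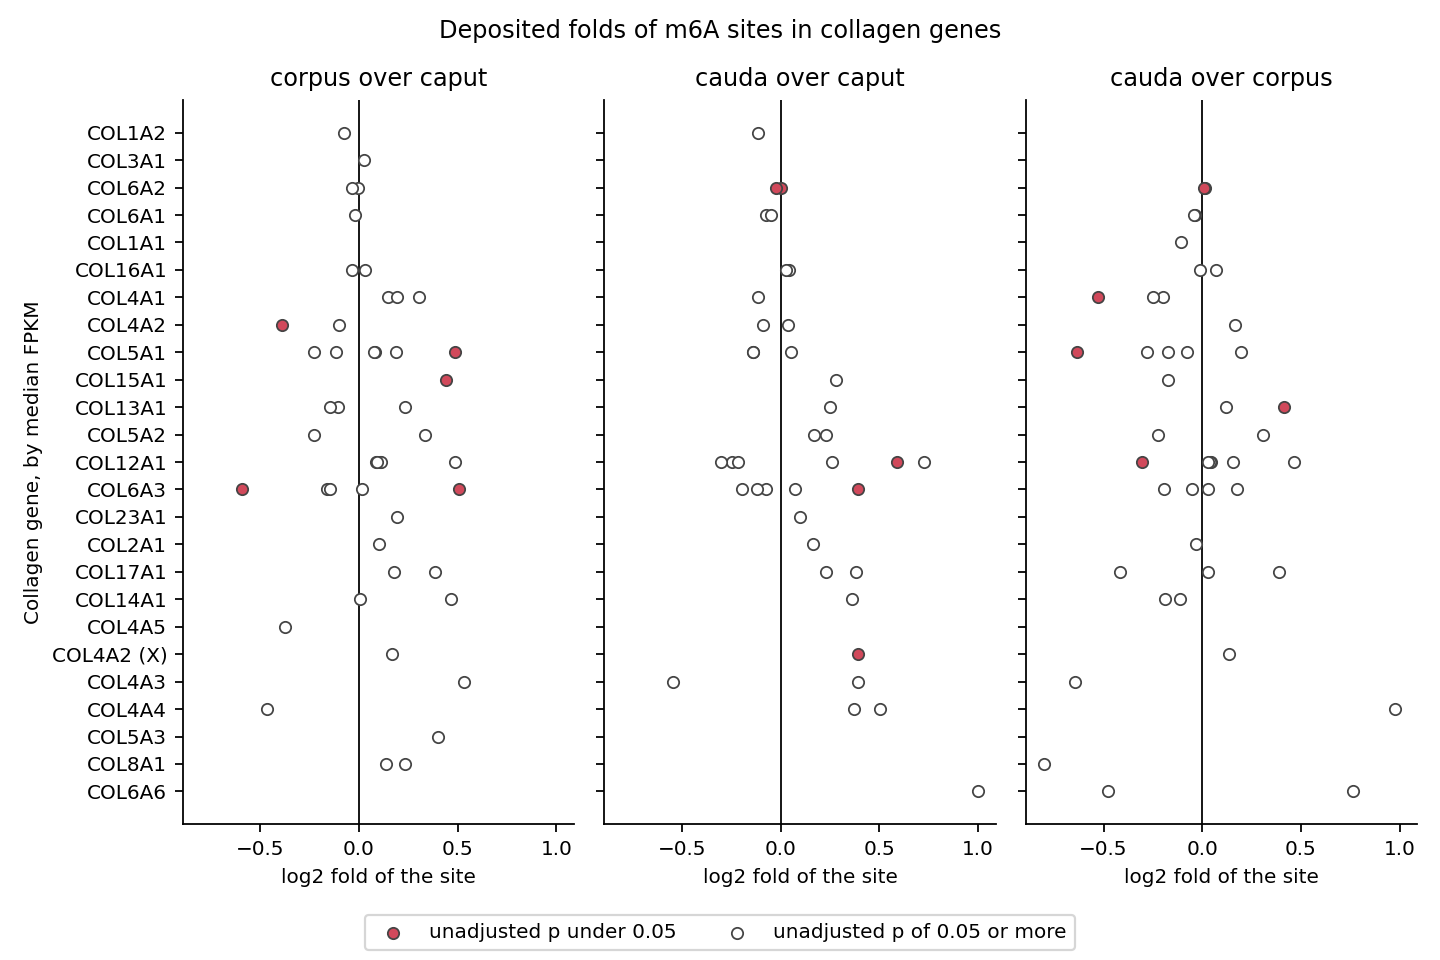
Log2 folds of the m6A sites of 25 collagen genes in the authors' deposited tables, 1 point per site, with 1 panel per comparison and genes in order of median FPKM. Filled points had an unadjusted p below 0.05, and no point had an adjusted p below 0.05. The points of COL1A1, COL1A2, COL3A1, COL6A1, COL6A2 and COL16A1 lay near 0, and the 4 points farthest from 0 were those of COL6A6, COL4A4 and COL8A1, at the bottom of the plot.

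Fibrillar collagens are described first. COL1A2 had a site of 648 bases with a log2 fold of -0.0761 for corpus over caput, and a site of 250 bases within its span with -0.112 for cauda over caput, in the authors' deposited table. COL1A1 had -0.109 for cauda over corpus and COL3A1 0.0251 for corpus over caput in the authors' deposited table. COL5A1 held the collagen site with the lowest p of cauda over corpus, at chr9:15118125-15127527, a spliced site of 301 bases. In the authors' deposited table this site had a log2 fold of -0.64 for cauda over corpus (p = 0.00339, adjusted p = 0.109) and of 0.49 for corpus over caput (p = 0.0141, adjusted p = 0.202). A shorter site within the same span had -0.138 for cauda over caput (p = 0.169) in the authors' deposited table. The other sites of COL5A1 lay between -0.282 and 0.197 over the 3 comparisons in the authors' deposited table.

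Type IV collagen sites had folds of both signs, and none passed the adjusted threshold. A COL4A1 site at chr15:18421902-18422197 had log2 folds of -0.53 for cauda over corpus (p = 0.00977, adjusted p = 0.178) and 0.307 for corpus over caput (p = 0.112) in the authors' deposited table. A COL4A2 site at chr15:18720095-18722492 had -0.391 for corpus over caput (p = 0.0195, adjusted p = 0.231) in the authors' deposited table. For the X-linked COL4A2 entry, the site at chrX:61650163-61650461 had 0.393 for cauda over caput (p = 0.0251, adjusted p = 0.262) in the authors' deposited table. COL4A4 had the largest fold among the collagen sites of cauda over corpus, a log2 fold of 0.978 at chr2:23557486-23557635, with p = 0.172 in the authors' deposited table. COL4A3, at chr2:23234676-23241372, had 0.533 for corpus over caput with p = 0.362 in the authors' deposited table.

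Within type VI collagen, sites of COL6A3 had folds of both signs. Its site at chr3:127987730-127994466 had a log2 fold of 0.505 for corpus over caput (p = 0.00589, adjusted p = 0.129) in the authors' deposited table, and its site at chr3:127964678-127966021 had -0.59 (p = 0.0129, adjusted p = 0.194). A site within the first of these spans had 0.391 for cauda over caput (p = 0.0251, adjusted p = 0.263) in the authors' deposited table. COL6A2 gave low p-values beside folds close to none. Its site at chr1:159217656-159220611 had a log2 fold of -0.0247 with p = 0.00427 (adjusted p = 0.112) for cauda over caput in the authors' deposited table, and of 0.00963 with p = 0.00912 for cauda over corpus. Over its 2 sites and the 3 comparisons, the log2 folds of COL6A2 lay between -0.0327 and 0.0139 in the authors' deposited table. Those of COL6A1 lay between -0.0718 and -0.0201 in the authors' deposited table. COL6A6 had the largest fold among the collagen sites of cauda over caput, a log2 fold of 1.0 at chr1:165717642-165717792, with p = 0.151 in the authors' deposited table. The same site had 0.766 for cauda over corpus, with p = 0.468 in the authors' deposited table.

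Among the other classes, COL15A1 had its single site at chr7:52818716-52834712 with a log2 fold of 0.443 for corpus over caput (p = 0.00589, adjusted p = 0.129) in the authors' deposited table. COL12A1 had a site at chr10:79247505-79255316 with -0.307 for cauda over corpus (p = 0.00794, adjusted p = 0.162) in the authors' deposited table. Another COL12A1 site, at chr10:79223396-79232221, had 0.589 for cauda over caput (p = 0.0437, adjusted p = 0.340) in the authors' deposited table, and a further one had 0.726 with p = 0.656. COL13A1 had 0.414 for cauda over corpus at chr27:25919628-25927856 (p = 0.0447, adjusted p = 0.349) in the authors' deposited table. Both sites of COL16A1 lay between -0.0346 and 0.0689 over the 3 comparisons in the authors' deposited table. COL8A1 had -0.802 for cauda over corpus at chr1:47443064-47443214, with p = 0.251 in the authors' deposited table.

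The 4 collagen folds farthest from 0 thus came from COL6A6 (2 comparisons), COL4A4 and COL8A1, whose medians were 0.940, 2.71 and 1.13 FPKM. No site of these 3 genes had an unadjusted p below 0.05 in the authors' deposited tables.

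The region lists give single adenosines within peaks that the authors scored as candidate m6A positions, 1 list per region, so replicates cannot be compared. A position was given to a collagen gene when it lay in a site span of that gene and of no other gene. The caput list held 228 such positions in 19 collagen genes, the corpus list 238 in 17 genes and the cauda list 261 in 20 genes. The authors classed 13.2% of the collagen positions of the caput as m6A sites (95% Wilson interval 9.37 to 18.2), 12.2% of those of the corpus (8.62 to 16.95) and 13.8% of those of the cauda (10.1 to 18.5). Of all positions, 19.1% in the caput, 19.3% in the corpus and 19.1% in the cauda were so classed. The share of all positions lay above the interval of the collagen positions in each region. The intervals cover counting error only and treat positions as independent, although neighbouring positions share a peak. They therefore cannot decide whether the shares differ, and the difference was not tested. The score belongs to the position and not to the region, since no collagen position listed in more than 1 region had different scores. Such positions numbered 250 of the 341 listed over the regions. The regions thus largely repeat the same positions, and their shares are not separate evidence.

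**Figure D5:**
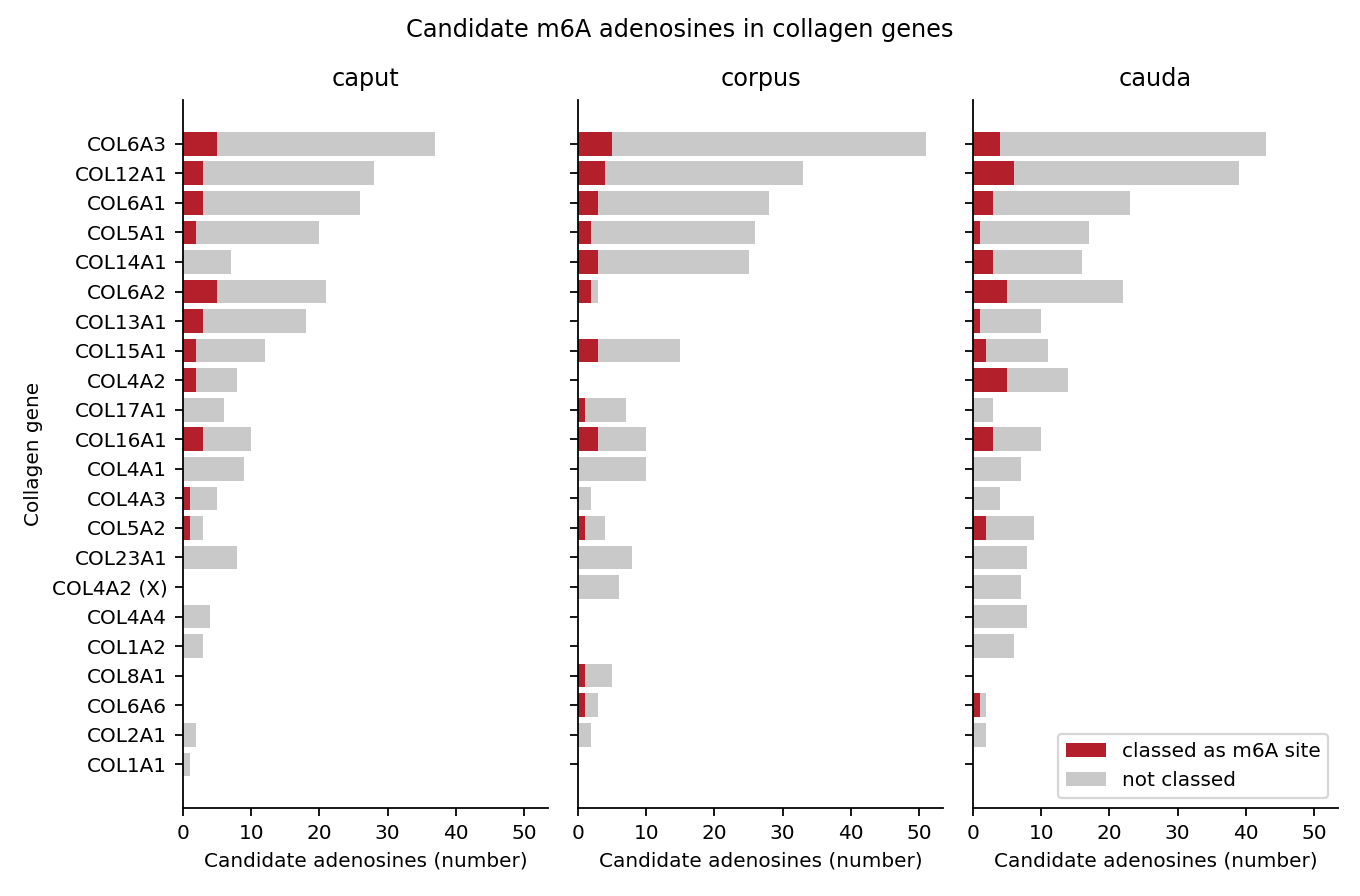
Candidate m6A adenosines per collagen gene in the caput, corpus and cauda lists, with the number of positions on the horizontal axis and the part classed by the authors as m6A sites in red. COL6A3 and COL12A1 had the most positions in each region, COL6A2 had 3 in the corpus against 21 in the caput and 22 in the cauda, and COL13A1 had none in the corpus.

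Over the regions, 341 collagen positions were listed, of which 136 (39.9%) were in all 3 regions and 91 (26.7%) in a single one, against 45.8% and 31.9% of all 143390 positions. They belonged to 22 genes. COL3A1, COL4A5 and COL5A3 had a site in the comparison tables but no candidate position. Candidates were listed in all 3 regions for 14 genes, in 2 regions for 6 genes and in 1 region for 2 genes, namely COL1A1 in the caput and COL8A1 in the corpus. Of the 45 collagen positions classed as m6A sites, 16 were listed in all 3 regions.

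COL6A3 had the most positions, 37 in the caput, 51 in the corpus and 43 in the cauda, with a best score of 0.621. COL12A1 had 28, 33 and 39 positions in caput, corpus and cauda, and COL6A1 had 26, 28 and 23. COL5A1 had 20, 26 and 17 positions in caput, corpus and cauda, and COL14A1, a fibril-associated collagen, had 7, 25 and 16. These 4 genes had candidates in every region, as COL6A3 did.

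COL6A2 had 21 candidates in the caput, 3 in the corpus and 22 in the cauda, although both of its sites were in all comparison tables with folds close to none. COL13A1 had 18 in the caput, 0 in the corpus and 10 in the cauda, and COL4A2 had 8, 0 and 14. The folds named above for COL4A2 (-0.391, corpus over caput) and COL13A1 (0.414, cauda over corpus) in the authors' deposited table ran in the same direction as these lists. Neither passed the adjusted threshold. The other COL4A2 site had -0.102 for corpus over caput. COL4A2 sites had -0.0877 and 0.038 for cauda over caput and 0.167 for cauda over corpus in the authors' deposited table. Other COL13A1 sites had -0.106, -0.147 and 0.233 for corpus over caput and 0.249 for cauda over caput in the authors' deposited table. The folds of 0.233 and 0.249 of COL13A1 and of -0.0877 of COL4A2 ran against the lists. Lists and folds describe the same libraries, so they are not independent. COL1A2, the collagen gene with the highest FPKM, had 3 candidates in the caput, 0 in the corpus and 6 in the cauda, and none was classed as an m6A site. COL4A1 had 9, 10 and 7 candidates in caput, corpus and cauda, and none of its positions was classed either. COL16A1 had 10 candidates in each region, all shared, and 3 of them were classed.

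The 7 collagen positions of very high confidence lay in 6 genes. The highest score, 0.726, was that of chr18:74963227 in COL14A1, listed in corpus and cauda. COL4A2 held 2 of them, chr15:18722221 with a score of 0.700 in caput and cauda and chr15:18719355 with 0.686 in the cauda. COL12A1 had chr10:79252901 with 0.695, and COL6A6 had chr1:165717764 with 0.690, both in corpus and cauda. Those of COL6A1, chr1:159049650 with 0.685, and of COL15A1, chr7:52833589 with 0.680, were listed in all 3 regions.

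Peaks that held collagen candidates were compared between regions by overlap. With a shared base as the criterion, 27 of 35 peaks of the corpus (77.1%) met a caput peak, against 79.1% of all corpus peaks. Of the 43 cauda peaks, 35 (81.4%) met a caput peak and 30 (69.8%) a corpus peak, against 77.6% and 76.0% of all cauda peaks. With reciprocal coverage of at least 50% required, the shares were 40.0% (corpus with caput, 95% Wilson interval 25.6 to 56.4), 55.8% (cauda with caput, 41.1 to 69.6) and 46.5% (cauda with corpus, 32.5 to 61.1), against 58.5%, 57.2% and 55.9% of all peaks.

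Genes that make, cut and bind collagen were followed beside the chains. Of 31 genes for collagen folding, processing and crosslinking, PPIB, a proline isomerase of the collagen folding complex, had a median of 1249 FPKM, P4HB, a subunit of prolyl hydroxylase, had 739 FPKM and CRTAP, a partner of the prolyl 3-hydroxylase, had 67.5 FPKM. A second entry with the symbol CRTAP had a median of 1.93 FPKM. No site of this list was called in any comparison, among 22 sites (corpus over caput), 20 sites (cauda over caput) and 20 sites (cauda over corpus) in the authors' deposited tables. Of all sites, 1.12% were called higher and 1.86% lower for corpus over caput. The shares were 1.41% and 0.861% for cauda over caput, and 1.24% and 0.719% for cauda over corpus. At such shares, lists of this size would hold few called sites or none, here and for the lists that follow. Among genes of collagen breakdown, the protease inhibitors TIMP2 and TIMP3 had medians of 201 and 156 FPKM and the protease CTSK 72.5 FPKM. One of the 7 breakdown sites of cauda over caput was called, that of TIMP3, which the authors' deposited table gives as -0.207 on the log2 scale (adjusted p = 0.00794), and none was called in the other comparisons. Of the collagen receptors, DDR1, a receptor kinase of epithelia, had a median of 45.1 FPKM, while ITGA2 and DDR2 had 4.31 and 3.29 FPKM, and none of their list's sites was called in the authors' deposited tables.

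Of the other matrix genes, DCN, SPARC and BGN had the highest medians, at 345, 133 and 57.7 FPKM. No site of this list was called among 38 for corpus over caput in the authors' deposited table. For cauda over caput, 2 of 40 sites were called in the authors' deposited table, SPARC with a log2 fold of 0.026 (adjusted p = 7.59e-05) and the laminin chain gene LAMA3 with -0.994 (adjusted p = 0.0427). For cauda over corpus, 2 of 45 were called in the authors' deposited table, SPARC with 0.113 (adjusted p = 8.51e-06) and the laminin chain gene LAMA4 with -1.90 (adjusted p = 0.00437). Of the fibroblast markers, PDGFRA, a growth factor receptor, had a site with log2 folds of -0.918 for cauda over caput (adjusted p = 0.00603) and -0.767 for cauda over corpus (adjusted p = 0.0269) in the authors' deposited table. ACTA2, TAGLN and DES, the smooth muscle markers with the highest medians (1936, 1121 and 821 FPKM), and the other genes of that list had no called site in the authors' deposited tables. Of the endothelial markers, EMCN had called sites with log2 folds of -0.841 for corpus over caput, -0.872 for cauda over caput and 0.0111 for cauda over corpus in the authors' deposited tables. Of the clear and narrow cell markers, DMRT2, ATP6V1B1, ATP6V1G3 and FOXI1 each had a site called lower for corpus over caput, between -1.35 and -0.315, in the authors' deposited table, and DMRT2 also for cauda over caput, at -0.761. For corpus over caput, the authors' deposited table also called PTPRC (leukocytes, 0.926) and FABP4 (adipocytes, 0.463) higher and AKAP4 (sperm, -0.42) lower. No site of the basal cell, principal cell or glial markers was called in the authors' deposited tables. Whether these moved with the collagen sites was not tested.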

How the data were processed

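Reads were trimmed with Trimmomatic and aligned with HISAT2, and deepTools is also named, all per the submitters' processing notes, which give no versions. Peak caller, differential test, site predictor and build: not given in the sources used here. The authors deposited FPKM values for 9 input columns, a prediction score and class per candidate adenosine in 1 list per region, and, per pair of regions and site, p-values and a fold (ratio, also as log2), per the file headers. A listed position was counted a single time, with its highest score. The direction of the folds was checked: gap-free sites with candidates only in the corpus had a median log2 value of 0.316 in the authors' deposited table of corpus over caput, and those only in the cauda had 0.3935 (over caput) and 0.395 (over corpus).

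Python 3.11.15, pandas 2.3.3, bedtools 2.31.1 and intervaltree 3.1.0 were used, and Wilson intervals came from statsmodels 0.14.6. The search for genes that separate header codes, the relative depth and the assignment of positions were tried on simulated data. Those data held a large planted shift and short spans without gaps or overlap. They checked only that the code ran as intended. No comparison between regions was tested here: calls are the authors' adjusted p below 0.05. Dixon's criterion was applied to single columns of each gene. Values are FPKM as deposited, with a floor of a median of 1 FPKM. Genes were named as those with a called site, the 8 with the highest median FPKM, the 6 with the most candidates and the 3 with the largest folds per comparison, and other collagen genes were named after their values were seen. Of other lists, genes with a called site and, of the matrix and smooth muscle lists, the 3 with the highest FPKM were named. The collagen genes and all lists were chosen with earlier results of these data known.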

Additional observations from a re-analysis of the deposited data

Results flagged for a closer look

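COL13A1 had 1 input column far from the others: EA3_1 held 37.1 FPKM, while the other 8 columns lay between 2.10 and 19.8 FPKM. The gap to the nearest column was 0.495 of the whole range, just above the 95% limit of Dixon's test for 9 values. The 25 collagen genes with a median of at least 1 FPKM were checked and 1 passed, where chance passes about 1 in 20. The 9 columns were treated as 1 set because their codes match no region.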

How the results depend on the processing

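Of 99 alternatives computed, 67 stayed within the margin used, whose size is not given here. This margin was wide for counts. It held the 35 genes at a floor of 0.1 FPKM in place of 25. It also held the 34 entries with symbols in capitals only in place of 42. At an unadjusted p below 0.05 the collagen sites called were 5 for corpus over caput, 5 for cauda over caput and 6 for cauda over corpus in the authors' deposited tables, in place of 0. With 1 site per gene, by lowest p, the median log2 folds in the authors' deposited tables were 0.138, 0.168 and -0.0794 in that order of comparisons, and over sites that hold a candidate they were 0.0792, 0.0625 and -0.00199. Collagen genes with a candidate classed as an m6A site numbered 11 in the caput, 12 in the corpus and 12 in the cauda. With any candidate they numbered 19, 17 and 20. At high or very high confidence they numbered 8 in the caput, 8 in the corpus and 8 in the cauda. Reciprocal overlap of 50% lowered the shared peaks to 40.0%, 55.8% and 46.5%. A floor of 10 FPKM left 12 genes. With no filter on low values, the genes of 42 with separate header codes were 1 (EA above, 5.06% of all genes), 4 (EA below, 5.26%), 2 (EB below, 7.28%) and 2 (EC above, 7.01%). Leaving out each column in turn gave 0 to 1 (EA above), 2 to 5 (EA below), 2 to 8 (EB above), 0 to 1 (EC above) and 2 to 4 (EC below), and 25 to 25 genes above the floor. The ratio between header codes was not run, since the codes match no label. No paired analysis was possible because the expression columns carry no replicate number that matches the labels and the site tables hold no values per library.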
